A study of Mus musculus with 4 samples.

Results

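A set of 10 genes known for their expression in the epithelium of the choroid plexus were followed across 4 whole-brain arrays: Ttr, Kl, Folr1, Aqp1, Kcnj13, Slc4a5, Clic6, Enpp2, Otx2 and Sostdc1. They were found by the RefSeq accession that each array probe carries. All 10 of the 10 genes were on the array, as 14 of its 56605 probes and 10 of the 23461 genes that could be named. The clearest measurement among them was of Aqp1, whose signal was 12.8-fold higher with lipopolysaccharide than with saline in Nav1.8CreROSA26DTA brain and 24.6-fold higher in wild-type brain. Of the 7 genes bright enough to be tested, no other passed the test for an effect of lipopolysaccharide, and none passed that for genotype.

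The choroid plexus is a fold of vascular tissue in the brain ventricles, covered by an epithelium that secretes cerebrospinal fluid and forms a barrier between blood and that fluid. Ions are moved across the epithelium by carriers and channels, water follows through the aquaporin AQP1, and proteins such as the thyroid hormone and retinol carrier transthyretin (Ttr) are released into the fluid. Lipopolysaccharide (LPS), the endotoxin of Gram-negative bacteria, is widely used to provoke a systemic inflammation like that of sepsis.

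Whole brain RNA was hybridised to single-colour Agilent arrays, with 1 array for each of 4 groups. They were Nav1.8CreROSA26DTA mice given LPS, wild-type mice given LPS, Nav1.8CreROSA26DTA mice given phosphate-buffered saline (PBS) and wild-type mice given PBS. LPS was injected into the peritoneum at 20 mg/kg and the brain was taken 12 h later; the labels give no sampling time after PBS, so a difference in sampling time cannot be told apart from LPS. In Nav1.8CreROSA26DTA mice, Cre under control of the Nav1.8 sodium channel gene (Scn10a) turns on diphtheria toxin A, so that sensory neurons of that lineage, chiefly nociceptors, are lost. The labels give neither the age nor the sex of the mice, and do not say whether an array holds 1 mouse or a pool, so group and animal cannot be told apart. The design sets LPS against PBS, Nav1.8CreROSA26DTA against wild-type, and the LPS response of one genotype against that of the other.

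Between 66.5% and 69.5% of the spots on an array were well above background, and 0 were saturated. All 4 arrays lay on 1 slide, with the LPS arrays in one row, the PBS arrays in the other and each genotype in its own column, and slide position cannot be told apart from group. Values below are scaled signals, the spot intensity after background subtraction, scaled so that the 75th percentile of every array is equal. They are in arbitrary units, and since probes differ in brightness, the level of one gene cannot be set against that of another. A spot was measured when the scanner software put it well above background, and the dimmest measured probe of an array lay between 7.66 and 10.3 units. An error given with a signal is the software's own error for that spot, which does not cover differences between animals.

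The name of the group of genes was checked against its defining markers, and the data go against it in part. Ttr, the hallmark transcript of choroid plexus epithelium, was well above background on only 1 of 4 arrays. Otx2, the transcription factor that maintains that epithelium, was likewise measured on 1 array. Slc4a5, the sodium bicarbonate cotransporter of its apical membrane, was measured on 0 arrays with either of its 2 probes. In all, the number of genes measured on all 4 arrays was 5 of 10, with 2 more measured on 3 arrays, 2 on 1 array and 1 on none, where 69.2% of all 23461 genes were measured on all 4. The 10 genes are therefore described below one by one, and not as a measure of choroid plexus tissue. Several of them are also expressed by other cells of the brain, Enpp2 by oligodendrocytes for instance.

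**Figure D1:**
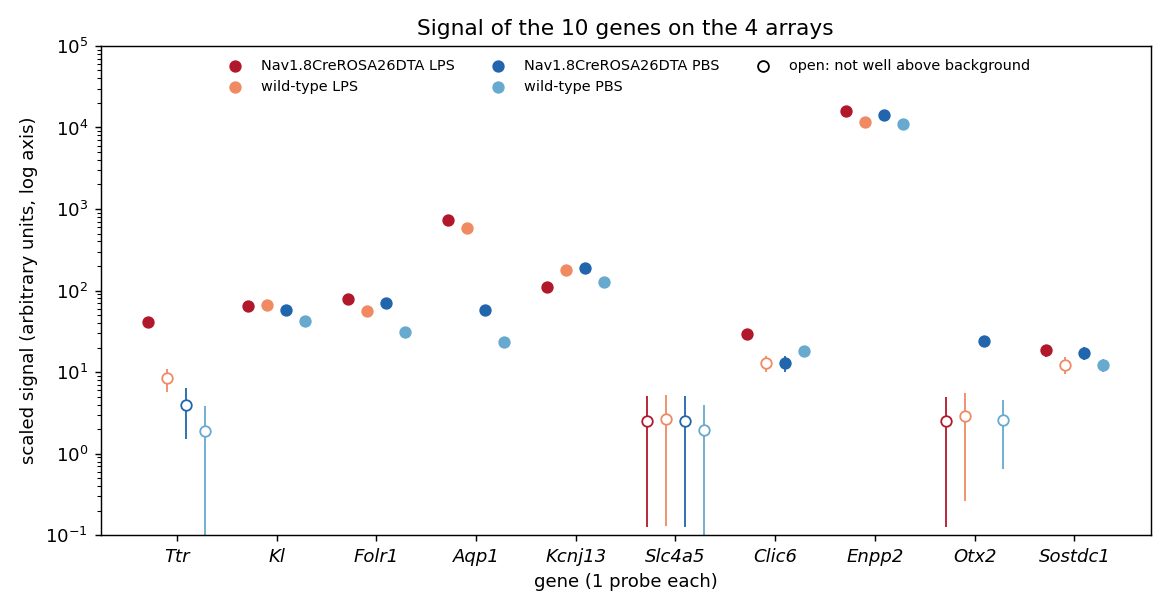
Scaled signal (log axis, arbitrary units) of the 10 genes, 1 probe each, on the 4 arrays. Filled points were well above background and open points were not, and bars are the scanner software's error for the spot. Aqp1 is far higher on both LPS arrays than on both PBS arrays, while Ttr, Slc4a5 and Otx2 lie near the background on most arrays.

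AQP1 is the water channel of the apical membrane of choroid plexus epithelium, and is also known from red cells, endothelium outside the brain and sensory neurons. Its signal was 740.2 ± 74.0 with LPS in Nav1.8CreROSA26DTA brain and 579.6 ± 58.0 with LPS in wild-type brain, against 57.8 ± 6.18 with PBS in Nav1.8CreROSA26DTA brain and 23.6 ± 2.89 with PBS in wild-type brain. Both LPS arrays lay above both PBS arrays by far more than the spot errors. Averaged over the genotypes, Aqp1 rose with LPS by 4.15 ± 0.22 on the log2 scale (limma's standard error, 1 array per group), with a Benjamini-Hochberg adjusted p of 4.5e-06 over 17132 genes. This limma model has terms for genotype and agent and leaves 1 residual degree of freedom, so its error rests mainly on other genes of like brightness. The call held when each array in turn was left out, in fits of the other 3 arrays with agent as the only term (3.50 to 4.80, adjusted p 0.000543 to 0.00564) and in the 9 other settings tried (2.85 to 4.22, adjusted p at most 0.022). Fewer cells of a type and less RNA per cell, or more of either, cannot be told apart in bulk tissue.

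Aqp1 was the only 1 of the 7 genes tested to rise with LPS, and 0 fell. Over all genes tested, 963 of 17132 (5.62%) rose and 777 (4.54%) fell at an adjusted p under 0.05. That split moved with the scaling, to 963 higher and 1292 lower with arrays scaled to their medians, 973 and 463 with cyclic loess, and 1043 and 433 in the authors' deposited value table. The median LPS effect was 0.34 over the 7 genes and -0.03 over all genes tested.

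The promoter of Aqp1 is shown because this gene gave the one LPS call of the group. These are the 250 bases before the gene's start at chr6:55336049-55336298, plus strand, from RefSeq on GRCm38.p6, and the capitals mark the GC box (GGGCGG), which begins 190 bases before the start.
Aqp1: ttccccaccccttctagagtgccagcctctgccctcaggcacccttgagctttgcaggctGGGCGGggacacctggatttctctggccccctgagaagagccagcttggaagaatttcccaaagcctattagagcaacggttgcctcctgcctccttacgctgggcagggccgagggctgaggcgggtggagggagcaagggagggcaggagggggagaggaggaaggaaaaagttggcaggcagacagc
A GC box on either strand was found in 32.7% of the 32851 promoter windows of this length. Searched on both strands, the window held none of the STAT motif TTCNNNGAA (7.02% of all windows), the glucocorticoid receptor half-site AGAACA (16.1%), the NF-kB motif (3.9%) or the OTX2 motif TAATCC (6.25%). A match or its absence describes the letters of this window only.

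Markers of blood differed between the arrays as well. Of 8 red cell markers 6 were on the array, and the summed signal of the 4 measured on every array, Hba-a1, Hba-a2, Hbb-bt and Alas2, was 194999 with LPS in Nav1.8CreROSA26DTA brain, 123811 with LPS in wild-type brain, 374517 with PBS in Nav1.8CreROSA26DTA brain and 51213 with PBS in wild-type brain. Within Nav1.8CreROSA26DTA brain the median red cell marker was 1.02 lower on the log2 scale with LPS (a difference of -1.02), and Aqp1 was 3.68 higher. Within wild-type brain the median red cell marker was 1.29 higher with LPS, and Aqp1 was 4.62 higher. The part of blood in the Aqp1 differences was not tested.

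Aqp1 was set beside the other aquaporins, of which 11 were on the array and 8 were tested. Of these 8, 0 rose and 0 fell with LPS (limma, adjusted p under 0.05). Aqp4, the water channel of astrocyte endfeet, had signals of 1552 with LPS in Nav1.8CreROSA26DTA brain, 1477 with LPS in wild-type brain, 1574 with PBS in Nav1.8CreROSA26DTA brain and 1252 with PBS in wild-type brain. The LPS arrays of Aqp4 overlapped the PBS arrays, and its averaged LPS effect was 0.11 ± 0.11 (limma, adjusted p = 0.598).

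**Figure D2:**
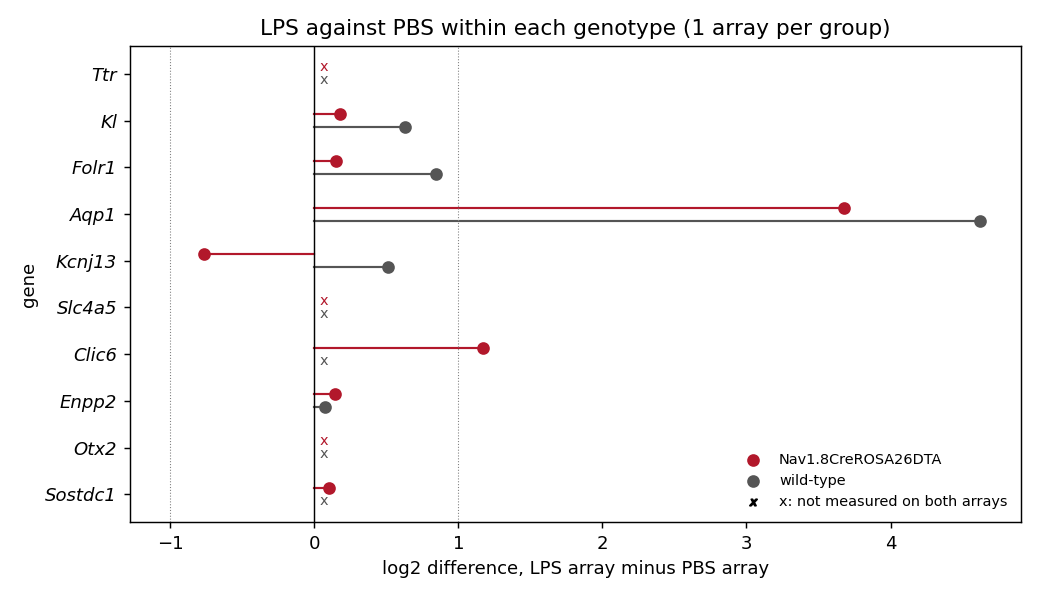
Log2 difference between the LPS array and the PBS array of each genotype for the 10 genes. Points are single differences with no replicate error, an x marks a gene not well above background on both arrays, and dotted lines mark 2-fold. Aqp1 lies at 3.68 in Nav1.8CreROSA26DTA and 4.62 in wild-type brain, and Kcnj13 lies on opposite sides of 0.

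Kcnj13 codes for the inward rectifier potassium channel Kir7.1 of the apical membrane of choroid plexus and retinal pigment epithelium. Its signal was 111 ± 11.3 with LPS in Nav1.8CreROSA26DTA brain and 181 ± 18.2 with LPS in wild-type brain, against 188 ± 18.9 with PBS in Nav1.8CreROSA26DTA brain and 127 ± 12.8 with PBS in wild-type brain. The LPS array was the lower one in Nav1.8CreROSA26DTA brain and the higher one in wild-type brain, and the groups overlapped. On the log2 scale the LPS difference was -0.76 in Nav1.8CreROSA26DTA brain and 0.51 in wild-type brain, so the response differed between genotypes by -1.27, with 1 array per group and no test. Among 16244 genes measured on all arrays, 1.53% had a response at least 2-fold lower in Nav1.8CreROSA26DTA brain by the same measure, and of the 5 genes of the group measured there Kcnj13 was the only 1. With normexp background correction 0 genes of the group had such a response. The averaged LPS effect was -0.13 ± 0.26 (limma, adjusted p = 0.829) and the averaged genotype effect was -0.07 ± 0.26 (limma, adjusted p = 0.966).

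The promoter of Kcnj13 is given for comparison with that of Aqp1, since the LPS differences of Kcnj13 had opposite signs in the genotypes. It spans the 250 bases before the start at chr1:87394730-87394979, minus strand, from RefSeq on GRCm38.p6. Capitals mark a TATA box (TATAAA) 29 bases before the start and CCAAT boxes 96 and 71 bases before it, the one at 96 on the opposite strand, where it reads ATTGG.
Kcnj13: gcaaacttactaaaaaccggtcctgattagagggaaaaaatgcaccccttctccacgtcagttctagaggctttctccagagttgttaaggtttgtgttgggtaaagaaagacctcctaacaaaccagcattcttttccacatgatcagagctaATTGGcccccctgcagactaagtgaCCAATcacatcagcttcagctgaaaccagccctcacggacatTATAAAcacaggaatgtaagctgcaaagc
On both strands, TATAAA was found in 12.4% and CCAAT in 33.8% of the 32851 windows. The STAT, glucocorticoid receptor, NF-kB and OTX2 motifs named above were not found in this window. The Aqp1 window held neither TATAAA nor CCAAT, and the Kcnj13 window held no GC box. Promoter windows were found for 5 of the 10 genes, Aqp1, Kcnj13, Kl, Otx2 and Slc4a5.

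Kl and Folr1 code for proteins released by or placed on the epithelium. Klotho, from Kl, is the co-receptor for FGF23 and is also shed into the cerebrospinal fluid. Its signal was 64.6 ± 6.81 with LPS in Nav1.8CreROSA26DTA brain and 65.8 ± 6.97 with LPS in wild-type brain, against 57.0 ± 6.10 with PBS in Nav1.8CreROSA26DTA brain and 42.5 ± 4.57 with PBS in wild-type brain. Both LPS arrays lay above both PBS arrays, but the averaged LPS effect of 0.41 ± 0.23 did not pass the test (limma, adjusted p = 0.341). Of the 5 genes measured on all arrays, 2 had both LPS arrays above both PBS arrays, Kl and Aqp1, a pattern found in 21.6% of all genes.

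Folr1 codes for folate receptor alpha, which carries folate from blood into the fluid. Its signal was 78.0 ± 8.20 with LPS in Nav1.8CreROSA26DTA brain and 56.1 ± 6.21 with LPS in wild-type brain, against 70.2 ± 7.47 with PBS in Nav1.8CreROSA26DTA brain and 31.2 ± 3.69 with PBS in wild-type brain. The wild-type PBS array was the low one, and the LPS and PBS groups overlapped. Neither the averaged LPS effect of 0.50 ± 0.25 (limma, adjusted p = 0.270) nor the genotype effect of 0.82 ± 0.25 (limma, adjusted p = 0.253) passed the test. A second probe of Folr1, to another transcript accession, was not well above background on any of the 4 arrays, at 7.84 with LPS in Nav1.8CreROSA26DTA brain, 6.84 with LPS in wild-type brain, 8.05 with PBS in Nav1.8CreROSA26DTA brain and 6.42 with PBS in wild-type brain.

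Enpp2 codes for autotaxin, the secreted enzyme that makes lysophosphatidic acid. Its signal was 15948 ± 1595 with LPS in Nav1.8CreROSA26DTA brain and 11664 ± 1166 with LPS in wild-type brain, against 14410 ± 1441 with PBS in Nav1.8CreROSA26DTA brain and 11104 ± 1110 with PBS in wild-type brain. The LPS and PBS arrays overlapped, and the averaged LPS effect was 0.11 ± 0.09 (limma, adjusted p = 0.523). Both Nav1.8CreROSA26DTA arrays lay above both wild-type arrays.

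The remaining genes were at or near the background. The better Ttr probe read 40.9 ± 4.72 with LPS in Nav1.8CreROSA26DTA brain and 8.40 ± 2.64 with LPS in wild-type brain, against 4.0 ± 2.47 with PBS in Nav1.8CreROSA26DTA brain and 1.90 ± 1.91 with PBS in wild-type brain. Only the first of these was well above background. Against the dimmest measured level, Ttr with LPS in Nav1.8CreROSA26DTA brain was at least 4.09-fold higher than with PBS in the same genotype and at least 3.97-fold higher than with LPS in wild-type brain. These bounds set the bright signal over the higher of the dim array's lowest measured signal and the dim probe's own signal. Neither these bounds nor those given below for other genes allow for the spot errors. The other Ttr probe was not well above background on any array, at 6.30 with LPS in Nav1.8CreROSA26DTA brain, 3.20 with LPS in wild-type brain, 2.33 with PBS in Nav1.8CreROSA26DTA brain and 1.79 with PBS in wild-type brain, so the Ttr signal rests on 1 spot of 1 array. Ttr was measured on too few arrays to enter the test.

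Otx2 showed the reverse arrangement of one bright array. It read 2.50 ± 2.51 with LPS in Nav1.8CreROSA26DTA brain and 2.90 ± 2.64 with LPS in wild-type brain, against 24.1 ± 3.48 with PBS in Nav1.8CreROSA26DTA brain and 2.60 ± 1.96 with PBS in wild-type brain. In Nav1.8CreROSA26DTA brain it was at least 2.46-fold lower with LPS than with PBS, and with PBS it was at least 3.15-fold higher in Nav1.8CreROSA26DTA than in wild-type brain. The other Otx2 probe was not well above background on any array, with signals of 1.60 to 2.54, so the Otx2 signal rests on 1 spot of 1 array. Its bounds belong to the main processing only, and averaged over genotypes or injections no usable bound was found. Slc4a5 read 2.52 with LPS in Nav1.8CreROSA26DTA brain, 2.63 with LPS in wild-type brain, 2.54 with PBS in Nav1.8CreROSA26DTA brain and 1.95 with PBS in wild-type brain, all not well above background, so no difference could be measured.

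Clic6, a chloride intracellular channel family member, was measured on 3 arrays. It read 29.3 ± 3.87 with LPS in Nav1.8CreROSA26DTA brain and 12.9 ± 2.94 with LPS in wild-type brain, against 13.0 ± 2.85 with PBS in Nav1.8CreROSA26DTA brain and 18.2 ± 2.67 with PBS in wild-type brain, and the wild-type LPS array was the one not measured. The Nav1.8CreROSA26DTA LPS array was the high one. With LPS, Clic6 was 2.27-fold higher in Nav1.8CreROSA26DTA than in wild-type brain, and in wild-type brain it was 1.41-fold lower with LPS than with PBS. Both are plain ratios to a signal not well above background, and not minima. The 2 wild-type signals overlapped within their spot errors. The averaged LPS effect of Clic6, 0.34 ± 0.45 with the dim signal in the fit, did not pass the test (limma, adjusted p = 0.712).

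Sostdc1 codes for a secreted antagonist of BMP and Wnt signalling. It read 18.6 ± 3.13 with LPS in Nav1.8CreROSA26DTA brain and 12.3 ± 2.91 with LPS in wild-type brain, against 17.3 ± 3.06 with PBS in Nav1.8CreROSA26DTA brain and 12.2 ± 2.30 with PBS in wild-type brain, and again the wild-type LPS array was not well above background. The LPS and PBS arrays overlapped, with an averaged LPS effect of 0.06 ± 0.38 that includes the dim signal (limma, adjusted p = 0.954). With LPS it was 1.51-fold higher in Nav1.8CreROSA26DTA than in wild-type brain, a plain ratio to a signal not well above background and not a minimum.

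Within single genotypes, where there is 1 array per group and no test, 2 of the 7 genes measured in Nav1.8CreROSA26DTA brain, Aqp1 and Clic6, were at least 2-fold higher with LPS, against 3.1% of all genes measured there. With normexp background correction the difference of Clic6 turned from 1.17 to -0.13 on the log2 scale, and 1 gene was left. In wild-type brain 1 of 5 measured genes was, Aqp1, against 3.41% of all genes. The gene measured in Nav1.8CreROSA26DTA brain with the lower signal on LPS was Kcnj13, and all 5 genes measured in wild-type brain had the higher signal on LPS, where 44.6% and 45.6% of all genes did in Nav1.8CreROSA26DTA and wild-type brain.

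The comparison of genotypes asks whether loss of the Nav1.8 lineage went with a difference in these genes. Averaged over both injections, 0 of the 7 genes tested passed (limma, adjusted p under 0.05), where 52 of 17132 genes (0.304%) were higher and 18 (0.105%) lower in Nav1.8CreROSA26DTA brain. At the looser threshold of an unadjusted p under 0.05, 10.2% of the 17132 genes passed. That share is not to be set against the 0 of 7, which is at the adjusted threshold. How many of the 7 passed the looser threshold is not given here, so the 0 of 7 says nothing about it. Folr1 had a genotype effect of 0.82 ± 0.25 (limma, adjusted p = 0.253). Enpp2 had a genotype effect of 0.41 ± 0.09 (limma, adjusted p = 0.102) and Aqp1 one of 0.82 ± 0.22 (limma, adjusted p = 0.181). Both passed in 2 of the 9 other settings. With normexp background correction Enpp2 was at 0.40 (adjusted p = 0.0122) and Aqp1 at 0.47 (adjusted p = 0.0451), and with no filter on dim genes Enpp2 was at 0.41 (adjusted p = 0.00263) and Aqp1 at 0.82 (adjusted p = 0.0013). Over those settings the adjusted p of each ran up to 0.9999. The median genotype effect was 0.41 over the 7 genes and 0.02 over all genes tested.

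With LPS, 3 of 5 measured genes had the higher signal in Nav1.8CreROSA26DTA brain and 0 were at least 2-fold higher, where 50.8% of all genes were above 0 and 0.829% were 2-fold higher. The 3 were Aqp1 (1.28-fold), Folr1 (1.39-fold) and Enpp2 (1.37-fold), and Kcnj13 was at 0.613 of the wild-type signal. With PBS, 6 of 7 measured genes had the higher signal in Nav1.8CreROSA26DTA brain, and Folr1 (2.25-fold) and Aqp1 (2.46-fold) were at least 2-fold higher, where 57.3% of all genes were above 0 and 1.21% were 2-fold higher. Clic6 was the exception, at 0.715 of the wild-type signal. The 2-fold counts depended on the setting: 0 genes passed with normexp, where the log2 differences were 0.65 for Folr1 and 0.59 for Aqp1, and 1, Aqp1, with the mean of all probes of a gene, and with normexp Clic6 stood at 0.15. Of the 5 genes measured on all arrays, 2 had both Nav1.8CreROSA26DTA arrays above both wild-type arrays, Folr1 and Enpp2, against 16% of all genes. The wild-type PBS array was the lowest of the 4 for Kl, Folr1, Aqp1 and Enpp2, 4 of 5 genes, against 25% of all genes. That array also had the lowest dimmest measured signal, 7.66 units against 9.79 to 10.3 on the others. Kl, Folr1 and Aqp1 read 42.5, 31.2 and 23.6 there, whereas the 25% is over measured genes of any brightness. The part of brightness in this pattern was not tested. The PBS arrays enter both the genotype and the LPS comparisons, so these counts are not independent of those for LPS.

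Markers of other cells moved between the genotypes too. The red cell markers had a median difference of 0.65 on the log2 scale with LPS and 2.93 with PBS, and the meningeal fibroblast markers, 9 of 10 on the array and all 9 measured, -0.07 with LPS and 0.98 with PBS. The 10 oligodendrocyte markers, all measured on every array, had median differences of 1.02 with LPS and 0.50 with PBS. By the genotype test 3 of them, Mobp, Cldn11 and Cnp, were higher, against 0.304% of all genes tested. Mobp, a myelin protein gene, was higher by 1.31 (limma, adjusted p = 0.0094) and Cldn11, a myelin tight junction gene, by 0.83 (limma, adjusted p = 0.0201). With each array left out in turn both had an adjusted p of 0.879 to 0.9999, in a fit of 3 arrays that mixes genotype with LPS. The summed signal of the oligodendrocyte markers was 125658 with LPS in Nav1.8CreROSA26DTA brain and 64592 with LPS in wild-type brain, against 109343 with PBS in Nav1.8CreROSA26DTA brain and 94101 with PBS in wild-type brain. Enpp2 was also highest on the Nav1.8CreROSA26DTA LPS array. In wild-type brain Enpp2 read 11664 ± 1166 with LPS and 11104 ± 1110 with PBS, which overlapped within their spot errors. The marker sum there was lower with LPS. The part of these cell types in the genotype differences was not tested.

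**Figure D3:**
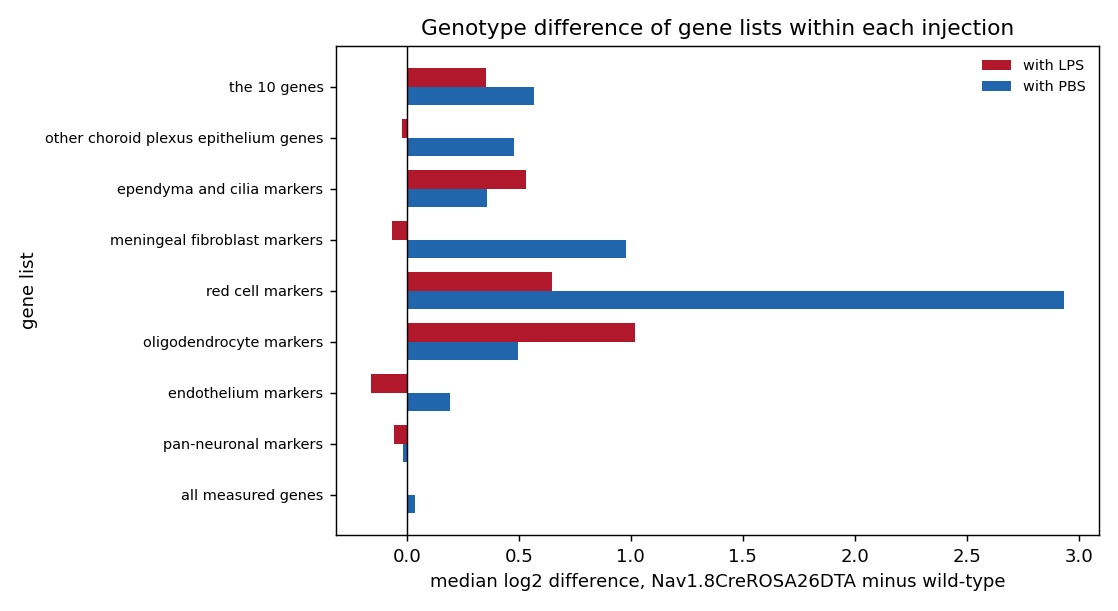
Median log2 difference between Nav1.8CreROSA26DTA and wild-type brain for lists of genes, with LPS and with PBS. Bars are medians over measured genes with 1 array per group and no error. The red cell markers stand at 2.93 with PBS, and the median over all measured genes lies at 0.00 with LPS and 0.04 with PBS.

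The wider set of genes known from choroid plexus epithelium was taken from a list of 40, of which 39 were on the array, 31 were measured on all 4 arrays and 35 were tested. Of the 31 measured on every array, 3 rose and 3 fell with LPS (limma, adjusted p under 0.05), against 5.62% and 4.54% of all genes tested, and their median effect was 0.04 against -0.03. The genotype test called 0 of the 35. Lmx1a, F5, Krt8 and Baiap2l1 were measured on no array. The same list also holds genes that other brain cells express, Trpv4 and Igf2 among them. It was chosen with earlier results of these data known, so its counts are a description and not an independent comparison.

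Lbp, which codes for the lipopolysaccharide-binding protein that hands LPS to its receptor, had signals of 343 with LPS in Nav1.8CreROSA26DTA brain and 590.1 with LPS in wild-type brain, against 64.1 with PBS in Nav1.8CreROSA26DTA brain and 45.9 with PBS in wild-type brain. Both LPS arrays lay above both PBS arrays, and Lbp rose by 3.05 ± 0.26 (limma, adjusted p = 8.7e-05). Trpv4, a calcium-permeable cation channel, rose by 1.79 ± 0.17 (limma, adjusted p = 0.000162). Slc22a8, the organic anion transporter OAT3, fell by 1.53 ± 0.21 on the log2 scale (limma, adjusted p = 0.00173), and its adjusted p was 0.0546 without the Nav1.8CreROSA26DTA LPS array. Without the intensity trend of the model the adjusted p was 0.0549 for Lbp and 0.0857 for Slc22a8.

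The other 3 calls did not hold in all fits of 3 arrays, which leave out an array and the genotype term together. The fit of all 4 arrays with agent alone already put Col8a1 at an adjusted p of 0.124, Igf2 at 0.259 and Slc29a4 at 0.285. Col8a1, a collagen gene, rose by 0.50 ± 0.13 (limma, adjusted p = 0.0479), and its adjusted p was 0.0668 to 0.498 with each array in turn left out. The growth factor gene Igf2 fell by 1.06 ± 0.28 on the log2 scale (limma, adjusted p = 0.0473) and the monoamine transporter gene Slc29a4 by 0.67 ± 0.18 (limma, adjusted p = 0.0436), and without each array other than the wild-type PBS array their adjusted p was 0.376 to 0.50 and 0.451 to 0.651. Without the Nav1.8CreROSA26DTA PBS array their effects were -0.30 and -0.20. Col8a1, Igf2, Slc22a8 and Slc29a4 were named after their values were seen. Cldn2, a tight junction protein of leaky epithelia, was measured on the LPS arrays only, at 11.8 in Nav1.8CreROSA26DTA brain and 35.4 in wild-type brain. It passed the filter only through those arrays, so its change is given as a bound, at least 2.34-fold higher with LPS averaged over the genotypes. Within Nav1.8CreROSA26DTA brain the bound was 1.18-fold and within wild-type brain 4.63-fold. These bounds belong to the main processing only. Over 8 other settings the fitted LPS effect of Cldn2 ran from 0.28 to 3.42 on the log2 scale.

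**Figure D4:**
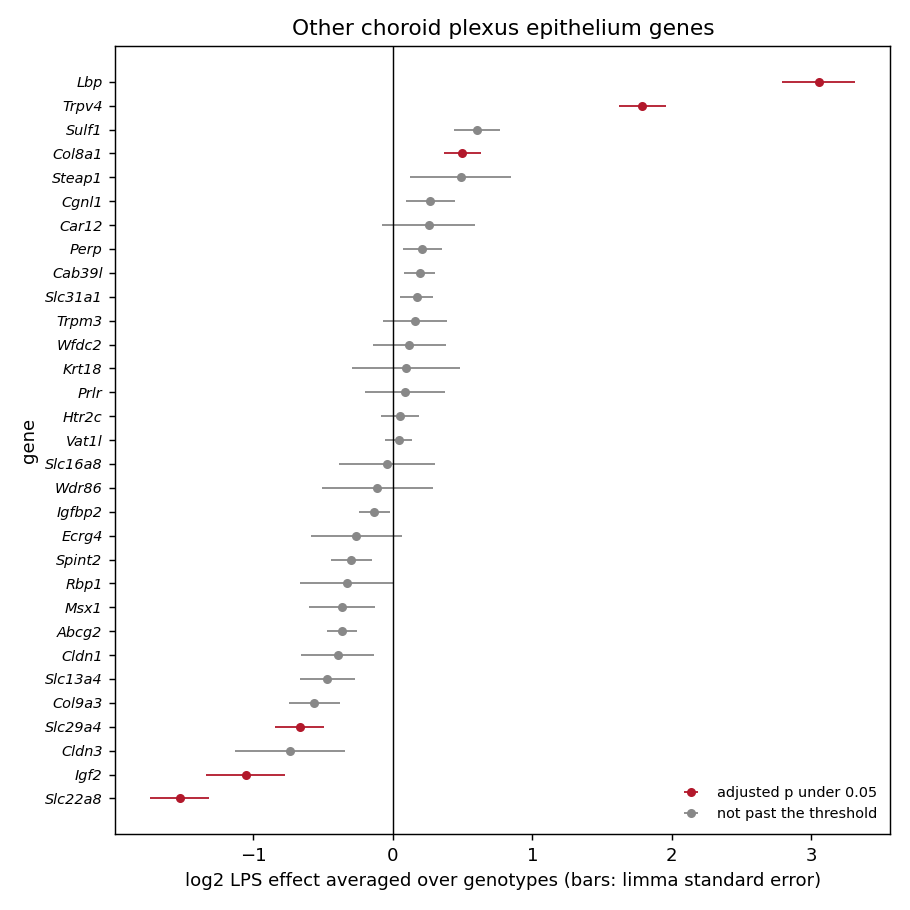
LPS effect (log2, averaged over genotypes) of the 31 genes measured on every array from the wider list of choroid plexus epithelium genes, with limma standard errors as bars. Red points passed an adjusted p of 0.05, and they lie on both sides of 0, from -1.53 for Slc22a8 to 3.05 for Lbp.

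The genotype difference was then taken across that wider list. With LPS 14 of 33 measured genes had the higher signal in Nav1.8CreROSA26DTA brain, with a median of -0.04, where 50.8% of all genes did. With PBS 27 of 31 had, with a median of 0.48, where 57.3% of all genes did. The medians over all measured genes were 0.00 with LPS and 0.04 with PBS. The medians of the red cell and meningeal markers given above were likewise larger with PBS than with LPS, and their part in this was not tested.

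Genes that work with the group were followed by pathway, where 5.62% of all genes tested rose with LPS and 4.54% fell. As before, fits that leave out an array also drop the genotype term, and with agent alone over all 4 arrays the calls given below for Dio2, Aldh1a2, Rbp4, Lpar1, Plpp3, Fgfr2, Fgfr3 and Wif1 ended as well (adjusted p 0.059 to 0.183). Of 14 genes of cerebrospinal fluid secretion and ion transport, all measured on every array, 0 rose with LPS and 1 fell, the carbonic anhydrase gene Car2, by 0.65 ± 0.10 on the log2 scale (limma, adjusted p = 0.00242). Without each array other than the Nav1.8CreROSA26DTA LPS array its adjusted p was 0.0894 to 0.154. Of 8 tested genes of folate uptake and use, the partners of Folr1, 0 passed in either direction, with a median LPS effect of 0.14.

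Of 11 tested genes of thyroid hormone and retinoid transport and activation, among which Ttr's ligands are handled, 2 rose and 2 fell. Slco1c1, the thyroxine transporter known from brain endothelium and choroid plexus, had signals of 212 with LPS in Nav1.8CreROSA26DTA brain and 257 with LPS in wild-type brain, against 690.3 with PBS in Nav1.8CreROSA26DTA brain and 728 with PBS in wild-type brain. It fell by 1.60 ± 0.12 on the log2 scale (limma, adjusted p = 4.6e-05), and held without each array. Dio2, the deiodinase that activates thyroxine, rose by 0.52 ± 0.11 (limma, adjusted p = 0.0188), and the retinoic acid synthesis gene Aldh1a2 by 0.79 ± 0.21 (limma, adjusted p = 0.0482). Both had an adjusted p of 0.195 to 0.363 without each array other than the Nav1.8CreROSA26DTA PBS array. The retinol carrier gene Rbp4, named after its values were seen, fell by 0.43 ± 0.10 (limma, adjusted p = 0.0223), and its adjusted p was 0.0758 to 0.361 with each array left out.

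Of 7 tested genes of lysophosphatidic acid signalling, the pathway of autotaxin, 1 rose and 2 fell. Plpp1, a phosphatase that degrades the lipid, rose by 0.92 ± 0.10 (limma, adjusted p = 0.000357) and held without each array, but was at an adjusted p of 0.0572 without the intensity trend. The receptor gene Lpar1 fell by 0.71 ± 0.13 (limma, adjusted p = 0.00759) and the phosphatase gene Plpp3 by 0.39 ± 0.09 (limma, adjusted p = 0.0223), but with each array left out in turn their adjusted p was 0.109 to 0.464 and 0.127 to 0.341. Of 6 tested klotho and FGF receptor genes, 0 rose and 2 fell, Fgfr2 by 0.59 ± 0.15 (limma, adjusted p = 0.0372) and Fgfr3 by 0.48 ± 0.13 (limma, adjusted p = 0.0432). Fgfr2 had an adjusted p of 0.117 to 0.361 with each array left out, and Fgfr3 one of 0.300 to 0.581 without each array other than the wild-type LPS array. Of 12 tested BMP and Wnt antagonist and receptor genes, the pathway of Sostdc1, 1 fell, the secreted Wnt inhibitor gene Wif1, by 1.12 ± 0.26 (limma, adjusted p = 0.0259), with an adjusted p of 0.130 to 0.216 as each array was left out.

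The epithelium that lines the ventricles beside the choroid plexus was followed through its own markers. Of 9 ependyma and cilia markers measured on every array 2 rose with LPS and 0 fell, against 5.62% and 4.54% of all genes tested. Ccdc153 read 105 with LPS in Nav1.8CreROSA26DTA brain and 56.9 with LPS in wild-type brain, against 62.0 with PBS in Nav1.8CreROSA26DTA brain and 11.4 with PBS in wild-type brain, so the LPS and PBS arrays overlapped and the wild-type PBS array was the low one. It rose by 1.54 ± 0.35 (limma, adjusted p = 0.024), which was 0.32 (adjusted p = 0.704) without the wild-type PBS array. Tmem212 was not well above background on the wild-type PBS array, and in wild-type brain it was at least 4.85-fold higher with LPS than with PBS. Dynlrb2, a cilium motor gene, rose by 0.83 ± 0.14 (limma, adjusted p = 0.00575), with adjusted p values of 0.0736 to 0.419 as each array was left out. With agent alone over all 4 arrays the adjusted p was 0.334 for Ccdc153 and 0.1004 for Dynlrb2.

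The genes whose profile over the 4 arrays lay nearest to that of Aqp1, out of 16239 genes measured on all 4, were Gm4951, Lilrb4a, A2m, Ifi204 and Zbp1, by Euclidean distance between mean-centred log2 profiles (0.200 to 0.612). Lilrb4a is an inhibitory receptor gene of myeloid cells, A2m codes for the protease inhibitor alpha-2-macroglobulin, and Ifi204 and Zbp1 are interferon-induced genes. Their LPS effects of 3.73 to 4.03 follow from that choice and are given as a description. The nearest to Ttr, at distances of 0.756 to 1.09 and with 3 of the 4 Ttr signals not well above background, were Clec4a1, Clec4a3, Lrrc25, Serpina3m and Ms4a4a. Clec4a1 and Clec4a3 code for C-type lectins of myeloid cells. A profile of 4 arrays describes these arrays only.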

How the data were processed

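Per the labels' protocols, TRIzol was used for whole mouse brain RNA and a low-input Agilent kit for labelling. Scans were read with Agilent Feature Extraction, version 12.0.3.1 and a design grid on mm9 per the file headers, or version 11.0.1.1 per the submitters' processing notes. The deposited intensity of a spot, its processed signal, is corrected for background within the array and not scaled between arrays, per the file headers. The deposited flags (well above background, saturated, outlier) are 0 or 1 values of the same software, and its processed signal error is the deposited intensity error of a spot, per the file headers. The authors' deposited value table holds linear intensity, and it equalled the processed signal times 1 factor per array (1.57 for Nav1.8CreROSA26DTA LPS, 1.83 for wild-type LPS, 2.09 for Nav1.8CreROSA26DTA PBS and 1.82 for wild-type PBS, with column medians of 102, 103, 91.4 and 97.2). The origin of those factors is not given in the sources here.

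Outlier spots, 81 to 96 per array, were left out and spots of a probe averaged. Signals were divided by the array's 75th percentile (726, 634, 514 and 612 in the order above) and taken to log2. The SD between 10 spots of a probe averaged 0.0456 to 0.0506 on the log2 scale over 300 probes, which is error within an array. Probes were named by RefSeq accession through a gene table of GRCm38.p6, with 33767 of 56605 having 1 symbol, and a gene was taken as the probe measured on the most arrays, then the brightest. Genes well above background on at least 2 arrays, 17132 in all, entered a limma 3.58.1 model in R 4.3.3 with genotype and agent (eBayes with an intensity trend, 1 residual and 7.99 prior degrees of freedom, two-sided, Benjamini-Hochberg, 0.05). With no separate animals known within a group, p-values cover only the spread between these arrays, and a true difference of response counts as error. Differences of 2 arrays have no test, and 2-fold counts are given. The model was tested on simulated data. Genes named were the 10, up to 3 per list with the largest passing LPS effect and up to 2 with the largest passing genotype effect, and the 5 nearest profiles to Ttr and to Aqp1. The members and lists were chosen with earlier results of these data known. Alternatives covered background correction, scaling, the value table, filters, probe choice, the variance trend and each array left out.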

Additional observations from a re-analysis of the deposited data

Results flagged for a closer look

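The LPS response of Kcnj13 had opposite signs in the genotypes, with -0.76 on the log2 scale in Nav1.8CreROSA26DTA brain and 0.51 in wild-type brain, a difference of -1.27. By the same 4 signals its genotype difference was -0.71 with LPS and 0.57 with PBS, which also differ by -1.27. The genotype difference of Kl was -0.03 with LPS and 0.42 with PBS, a difference of -0.45. With 1 array per group these differences were not tested. With normexp background correction the response of Kcnj13 was no longer at least 2-fold lower in Nav1.8CreROSA26DTA brain.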

How the results depend on the processing

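No paired analysis was possible because the groups hold 1 array each and the labels give no replicate numbers. Normexp on the mean signal was not run, since that column is not used here, and normexp on the median signal was added in its place after seeing the data. Of the 10 genes, 1 rose with LPS and 0 fell or differed by genotype; without a filter on dim genes, which lets all 10 into the fit, 2 rose and 1 fell with LPS and 3 were higher by genotype, and with normexp 2 were. The 2-fold counts of members without the filter were 1 lower with LPS in Nav1.8CreROSA26DTA and 2 higher in wild-type brain, 2 higher in Nav1.8CreROSA26DTA than in wild-type brain with LPS and 4 with PBS, and 2 higher and 2 lower for the difference of responses. With normexp, 1 was 2-fold higher with LPS in Nav1.8CreROSA26DTA brain, and 0 higher with PBS by genotype or lower in response; genes measured on all 4 arrays gave 1 for the first of these, and the mean of all probes 1 for the second. The members' median LPS effect was 0.063 with normexp and -0.079 to 0.391 with an array left out, and their genotype median 0.20 and 0.31 to 0.60.

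Over all genes, LPS called 1583 higher and 1567 lower without the filter, 382 and 48 without the trend, 597 and 278 with agent alone, 370 to 514 and 70 to 187 with an array left out, and 504 lower with the mean of probes. By scaling, 1292 were lower with medians, 463 with cyclic loess and 433 in the value table. Genotype called 258 higher and 125 lower with normexp, 166 and 31 with medians, 21 and 8 with cyclic loess, 20 and 8 in the value table, 654 and 304 without the filter, 11 and 1 with the mean of probes, and 0 and 0 without the trend, with genotype alone and with an array left out.

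Signs that turned belonged to effects that had not passed, apart from Mobp. With normexp Clic6 was at -0.13 for LPS in Nav1.8CreROSA26DTA brain and -0.11 averaged, and Sostdc1 at -0.11; scaled to medians Sostdc1 was at -0.000358. With an array left out, and with it the other factor, LPS effects ran from -0.25 to 0.93 for Clic6, -0.12 to 0.33 for Enpp2, -0.085 to 1.08 for Folr1, -0.48 to 0.23 for Kcnj13, -0.24 to 0.35 for Sostdc1 and -0.29 to 1.38 for Mobp, whose LPS call was lost. Genotype effects, which that fit mixes with LPS, ran from -1.49 to 3.13 for Aqp1, -0.24 to 0.93 for Clic6, -0.45 to 0.31 for Kcnj13 and -0.12 to 0.51 for Kl. The cause was not tested. The limits are 1 array per group, 1 slide with position tied to group, and signals of Ttr, Otx2 and Slc4a5 near the background, where only bounds can be given.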

Other observations

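Endothelium markers were followed too, and all 9 of them were measured on every array. With LPS 2 rose and 4 fell (limma, adjusted p under 0.05), beside a median of 0.10, where 5.62% of all genes tested rose and 4.54% fell. The largest of these changes was the fall of Itm2a, by 2.13 ± 0.12 on the log2 scale (limma, adjusted p = 5.8e-06). With each array left out its effect was -2.43 to -1.84. Ly6c1, a surface protein of brain endothelium, had signals of 12712 with LPS in Nav1.8CreROSA26DTA brain and 16197 with LPS in wild-type brain, against 4448 with PBS in Nav1.8CreROSA26DTA brain and 4393 with PBS in wild-type brain, and rose by 1.70 ± 0.11 (limma, adjusted p = 1.4e-05). Abcb1a, the drug efflux pump of the blood-brain barrier, fell by 1.503 ± 0.15 on the log2 scale (limma, adjusted p = 0.000292). The calls of Ly6c1 and Abcb1a held with each array left out, and that of Abcb1a was at an adjusted p of 0.0699 without the intensity trend. Of 9 meningeal fibroblast markers, which lie on the outer barrier of the brain, 3 rose and 1 fell. The transporter gene Slc47a1 fell by 2.002 ± 0.24 on the log2 scale (limma, adjusted p = 0.00074) and held with each array left out, though not without the intensity trend (adjusted p = 0.0829), whereas the matrix gene Dcn, which rose by 1.82 ± 0.18 (limma, adjusted p = 0.000188), had an adjusted p of 0.0539 without the wild-type LPS array and 0.141 without the Nav1.8CreROSA26DTA LPS array, in fits that also drop the genotype term.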
